A study of Mus musculus with 48 samples.

Results

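Mature granule cells of the mouse dentate gyrus (DG) were followed through 48 RNA sequencing libraries by 8 genes that mark them, Prox1, Calb1, Dsp, C1ql2, Ahcyl2, Tdo2, Plk5 and Lct. They were taken by name, as the rows of the deposited count table that match those symbols, and are 8 of its 55357 genes. All 8 passed the filter for low counts, which left 21390 genes to be tested. The libraries came from 24 C57BL/6J wild-type mice, each with a unilateral intrahippocampal injection of kainate, which induces status epilepticus, or of saline. The DG was dissected 3, 7 or 14 days after injection. In each mouse the dorsal DG of the injected side (ipsilateral, the epileptogenic zone or EZ) and of the other side (contralateral, the peri-ictal zone or PIZ) gave 1 library each, so that side, injection and day define 12 groups of 4 libraries from 4 mice, 2 male and 2 female. Mice were aged 6 to 8 weeks by the series record, but 8 to 10 weeks by the study's methods. All groups, controls included, share the strain and the surgery. The EZ of a saline mouse is injected tissue, and the PIZ was never injected in either treatment. Tissue of different mice was not pooled, and p-values below rest on the spread between mice of a group. The models of all 48 libraries take 1 spread per gene over all 12 groups, so that each comparison also carries the spread of other groups. They do not pair the EZ and PIZ libraries of a mouse, and fits with mouse as a block are given separately.

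Granule cells are the principal neurons of the DG. They receive cortical input through the perforant path and send mossy fibres to hilar mossy cells and to CA3. Because they stay largely silent in health they are often described as a gate against the spread of seizures, and in temporal lobe epilepsy they are known to lose calbindin, to disperse and to sprout mossy fibres. Their identity rests on the transcription factor Prox1, which is needed to specify and keep the granule cell fate. The other members are read here as markers of mature granule cells, and how far other cells of the tissue also make them was not tested. A bulk library measures RNA of the whole dissected tissue, so fewer granule cells and less RNA per granule cell cannot be told apart.

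Total counts per library lay between 17762656 and 25712975, with a median of 22108562. Prox1 had between 2144 and 8071 counts in each library, so the marker that defines granule cells was present in all 48. The least abundant member, Tdo2, had between 13 and 466 counts. Levels are given in CPM, the counts of a gene relative to the library total after scaling of the libraries by the trimmed mean of M values (TMM). A differentially expressed gene (DEG) is a gene that changed by more than 1.5 times with an adjusted p below 0.01 in the quasi-likelihood test of edgeR, with adjustment over all genes tested.

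In their marker lists 6 libraries stood apart, and they bear on what follows. Of these, 3 were PIZ libraries, of saline mouse 18 at day 3, saline mouse 39 at day 14 and kainate mouse 21 at day 7. Their mean level over a list of 18 other granule cell genes was between 6.35 and 6.73 log2 CPM, against 6.94 to 7.51 in the other 21 PIZ libraries. Their mean over 5 mossy cell genes was between 3.40 and 3.67 log2 CPM, against 2.19 to 3.03 in the others. The pan-neuronal list was at 8.86 to 8.90 log2 CPM, against 8.43 to 8.79. The remaining 3 were EZ libraries of kainate mice 21 and 35 at day 7 and mouse 27 at day 14, in which 8 microglia genes averaged between 7.75 and 8.78 log2 CPM, against 5.14 to 7.45 in the other 9 EZ kainate libraries and 4.74 to 6.01 in the 12 EZ saline libraries. In these 3 the members averaged 3.40 to 4.2 log2 CPM, against 4.50 to 6.94 in the other EZ kainate libraries and 6.42 to 7.08 in EZ saline. Both sets were left out in turn as alternatives, which were chosen after the data were seen.

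**Figure D1:**
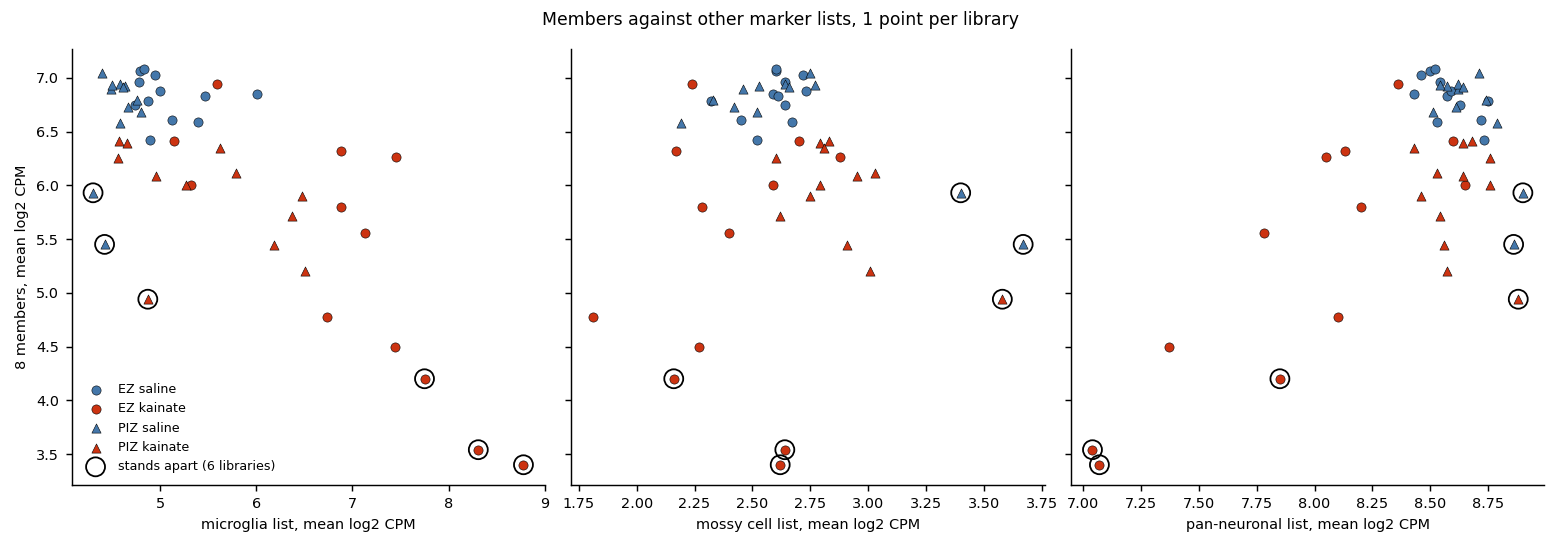
Mean log2 CPM of the 8 members in each of the 48 libraries (y axis) against the mean log2 CPM of the microglia, mossy cell and pan-neuronal lists (x axes), with circles for the EZ, triangles for the PIZ, blue for saline and red for kainate. Rings mark the 6 libraries that stand apart: 3 EZ kainate libraries with the highest microglia list and the lowest members, and 3 PIZ libraries with the highest mossy cell list.

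In saline mice the members could be ordered by their level per kilobase of exon. C1ql2 was highest at 62.1 ± 18.9 CPM per kilobase (SD, n = 24 libraries), followed by Prox1 at 29.4 ± 5.66. Calb1 (20.2 ± 3.33), Lct (19.7 ± 5.35), Ahcyl2 (18.1 ± 1.73), Plk5 (16.2 ± 4.92) and Dsp (14.3 ± 3.54) followed, and neighbours among these 5 differed by less than the larger of their SDs. Tdo2 was lowest at 3.73 ± 0.868 CPM per kilobase. No member was called between the EZ and the PIZ of saline mice (0 of 8 DEG by edgeR, DESeq2 or limma-voom, 0 at an unadjusted p under 0.05 by edgeR), where 0.0234% of all genes were called by edgeR, 0.127% by DESeq2 and 0.309% by limma-voom. Within mice, however, Calb1 was lower in the EZ in 12 of 12 saline mice and Plk5 was higher there in 12 of 12, by -0.313 ± 0.227 and 0.493 ± 0.734 in log2 CPM (mean and SD over mice), as were 0.407% and 1.25% of all genes. In each the two-sided exact permutation test over the signs of the 12 differences gave 0.000488, the smallest p that 12 pairs allow. With mouse as a block, the edgeR values were -0.31 ± 0.20 for Calb1 (adjusted p of 0.561) and 0.47 ± 0.32 for Plk5 (0.585). The Plk5 mean leaned on the mice whose PIZ libraries stood apart, and was 0.319 ± 0.441 without mouse 39 and 0.212 ± 0.274 without mice 18 and 39, with 10 of the remaining 10 still higher in the EZ. Calb1 was at -0.343 ± 0.231 without both. Of the other 6 members, C1ql2 was higher in the EZ in 10 of 12 mice (0.434 ± 0.513, exact permutation p of 0.00684, and 0.266 ± 0.319 without those 2 mice). Lct was at 0.462 ± 0.992 (exact permutation p of 0.0469), and at 0.0659 ± 0.143 without them, and the other 4 had exact permutation p values of 0.336 to 0.663. In the edgeR fit with mouse as a block C1ql2 was at 0.43 ± 0.30 (adjusted p of 0.596) and Lct at 0.41 ± 0.33 (0.65). The tests within mice, run for the 8 members, were chosen after the data were seen. Between day 14 and day 3 of saline mice 0 of 8 were called in the EZ and 0 of 8 in the PIZ by the same 3 tools, again with 0 at an unadjusted p under 0.05, and edgeR called 0% of all genes in either region. DESeq2 called 0.0187% and limma-voom 0.692% in the EZ, and both called 0% in the PIZ. In those 2 comparisons edgeR gave an unadjusted p under 0.05 for 1236 and 519 genes.

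In the EZ of kainate mice the log2 fold change of all 8 members was below 0 at each day, and in the PIZ 6, 7 and 6 of 8 were below 0 at days 3, 7 and 14. Prox1 did not pass the edgeR test in any comparison, Calb1, Tdo2, Dsp and Ahcyl2 lay under all saline libraries on both sides at day 3, and of C1ql2 and Plk5 edgeR called the Plk5 change in the EZ at day 7 alone. Limma-voom with quality weights called 6 of 8 members lower in the EZ at day 3 and 7 of 8 at day 7, C1ql2 and Plk5 included on both days, where it called 12.9% and 13.9% of all genes lower. Downregulated DEG numbered 3 in the EZ at day 3 (Calb1, Dsp and Tdo2), 3 in the EZ at day 7 (Calb1, Tdo2 and Plk5) and 3 in the PIZ at day 3 (Calb1, Ahcyl2 and Tdo2). The share of all tested genes called lower in those comparisons was 8.61%, 11.9% and 1.57%, against 3 of 8 members in each. None was called in the EZ at day 14 or in the PIZ at days 7 and 14, where 0.0374%, 0.0514% and 0.00468% of all genes were called lower. At an unadjusted p under 0.05 edgeR gave 5 and 4 members in the EZ at days 3 and 7 and 4 in the PIZ at day 3. There 53.9%, 61.4% and 35.7% of all genes had such a p. In the 3 comparisons without a call it gave 4, 5 and 3 members, and 18%, 14.5% and 5.97% of all genes. DESeq2 called 0, 1 and 0 members lower (0.0778%, 0.159% and 0.014% of all genes), and limma-voom called 2, 4 and 3 (0.112%, 0.612% and 0.234%). No member was an upregulated DEG in any of the 6 comparisons, where 16.1%, 20.6% and 2.32% of all genes were called higher in the EZ at days 3, 7 and 14 and 7.12%, 0.150% and 0.00935% in the PIZ. The EZ calls depended on single mice: at day 3 Tdo2 alone was called without kainate mouse 30, kainate mouse 38 or saline mouse 41, and at day 7 the count was 1 without kainate mouse 21 or 35, 5 without kainate mouse 23 and 0 without the 3 EZ libraries that stood apart. The median log2 fold change of the members was -1.06, -1.07 and -0.72 in the EZ at days 3, 7 and 14, and -1.04, -0.76 and -0.36 in the PIZ. The median over all genes lay between 0.0033 and 0.032.

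**Figure D2:**
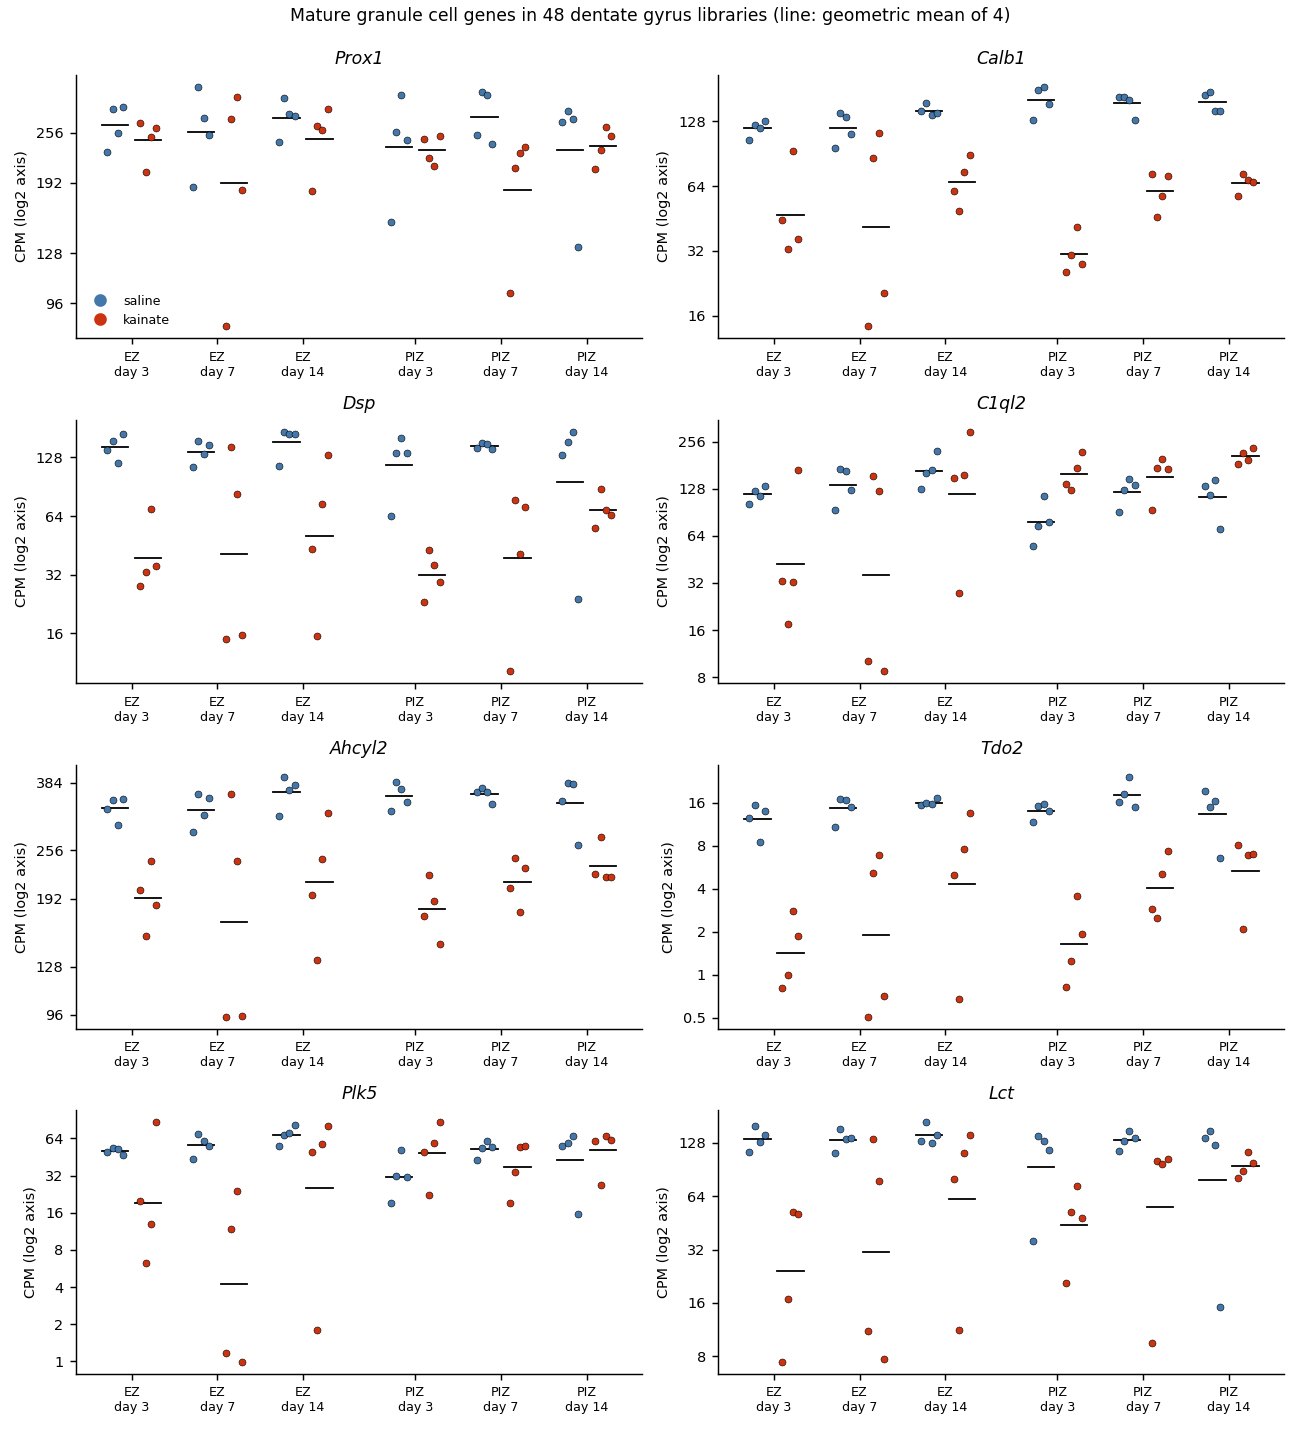
CPM of each member in the 48 libraries on a log2 axis, by region and day, with saline in blue, kainate in red and a line at the geometric mean of the 4 libraries. Prox1 kainate libraries overlap with saline in 5 of 6 pairs of groups, Calb1 and Tdo2 lie below all saline libraries in 5 of 6 pairs of groups each, and for 5 members (Calb1, Dsp, C1ql2, Ahcyl2 and Lct) the EZ kainate libraries at day 7 split into a pair near saline and a pair far below it.

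**Figure D3:**
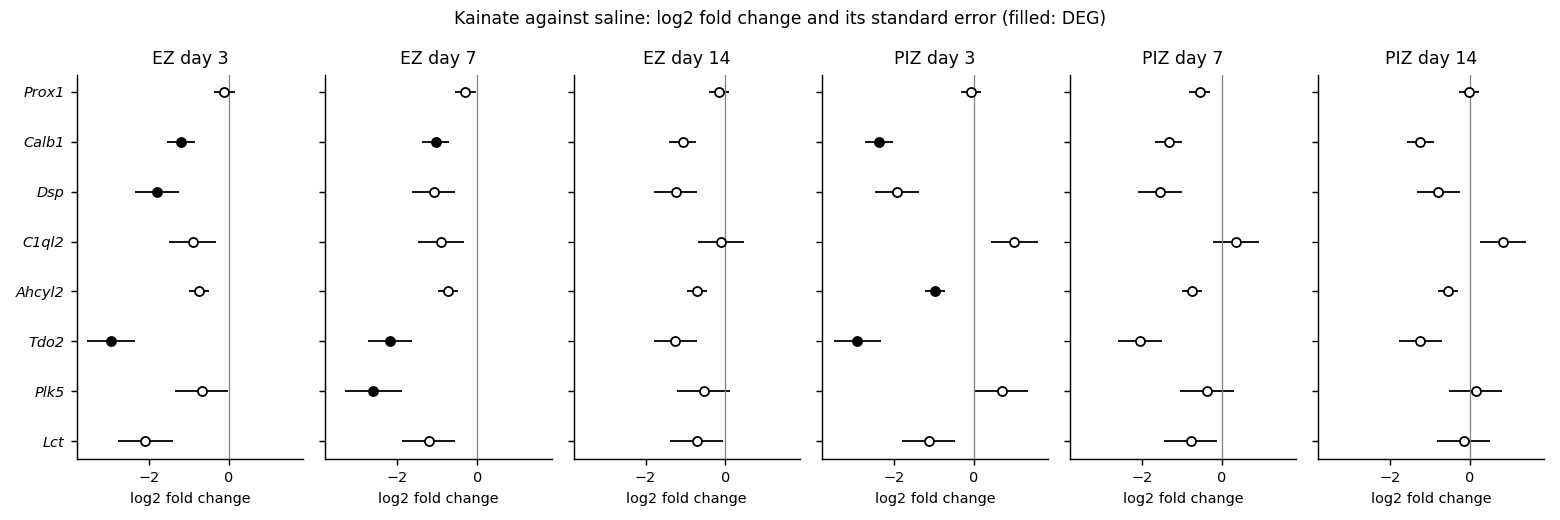
Log2 fold change of kainate against saline (x axis) with its standard error for the 8 members, in the EZ and PIZ at each day. Filled points are DEG: 3 in the EZ at day 3, 3 in the EZ at day 7 and 3 in the PIZ at day 3, all lower in kainate mice.

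Promoter sequence is shown for 4 members: Tdo2, which had the largest fall, C1ql2 and Plk5, whose levels followed each other closely, and Ahcyl2, whose first start site held the single AP-1 motif. The RefSeq promoters of GRCm38.p6 covered 7 of the 8 members with 10 start sites, and Calb1 was the member without an entry. Each sequence is the 250 bases before the start, written on the gene's own strand: Tdo2 chr3:81975729-81975978 (minus), C1ql2 chr1:120340332-120340581 (plus), Plk5 chr10:80356209-80356458 (plus) and Ahcyl2 chr6:29768193-29768442 (plus). Capitals mark an E box (CANNTG), which basic helix-loop-helix factors bind, or an AP-1 motif (TGANTCA), and both strands were searched.

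Tdo2: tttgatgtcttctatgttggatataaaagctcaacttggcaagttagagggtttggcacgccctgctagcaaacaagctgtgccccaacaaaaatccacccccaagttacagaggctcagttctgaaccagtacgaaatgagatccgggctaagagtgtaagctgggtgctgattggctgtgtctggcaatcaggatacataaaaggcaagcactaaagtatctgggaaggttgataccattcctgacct
C1ql2: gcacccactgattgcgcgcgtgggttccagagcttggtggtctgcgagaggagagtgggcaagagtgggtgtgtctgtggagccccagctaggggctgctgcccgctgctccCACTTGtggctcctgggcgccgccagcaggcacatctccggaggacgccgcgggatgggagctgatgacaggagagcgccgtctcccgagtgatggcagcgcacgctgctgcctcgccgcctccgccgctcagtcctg
Plk5: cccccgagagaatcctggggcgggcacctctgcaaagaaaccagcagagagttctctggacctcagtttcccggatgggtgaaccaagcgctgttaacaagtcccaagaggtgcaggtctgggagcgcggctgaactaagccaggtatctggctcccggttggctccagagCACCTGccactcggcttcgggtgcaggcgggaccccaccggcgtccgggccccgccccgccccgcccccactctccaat
Ahcyl2: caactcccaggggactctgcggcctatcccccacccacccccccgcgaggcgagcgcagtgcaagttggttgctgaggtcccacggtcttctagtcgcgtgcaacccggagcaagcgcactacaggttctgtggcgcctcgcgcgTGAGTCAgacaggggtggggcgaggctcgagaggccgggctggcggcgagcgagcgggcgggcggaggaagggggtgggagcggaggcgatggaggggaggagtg

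An E box was found before 5 of the 10 member starts, and in 66.2% of 32851 promoters of the same length. In C1ql2 it lies 138 bases before the start and in Plk5 79 bases before it, while neither motif was found in the Tdo2 window. The AP-1 motif of Ahcyl2 lies 105 bases before its start. That motif was found before 1 of 10 member starts and in 6.75% of all promoters, and the cyclic AMP response element (CRE, TGACGTCA) before 0 of 10 and in 1.55%. These matches describe the letters only.

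Prox1 (ENSMUSG00000010175.14, chr1:189850232-189904637 of GRCm39, minus strand) is a homeodomain factor, and no change in it passed the test. At day 3 the EZ mean was 247 ± 30 CPM in kainate and 269 ± 32.4 CPM in saline (SD, n = 4 each, as in the next values). By day 7 the EZ kainate mean was 215 ± 103 CPM against 264 ± 61.3 CPM, and by day 14 it was 251 ± 47.5 CPM against 281 ± 29.4 CPM. For the PIZ the kainate means were 233 ± 19.4, 194 ± 62.6 and 239 ± 24.7 CPM at the 3 days, and the saline means were 244 ± 68.5, 284 ± 43.6 and 243 ± 74.1 CPM. Groups overlapped in 5 of the 6 comparisons, and in the PIZ at day 7 the highest kainate library (236 CPM) lay just under the lowest saline library (240 CPM). The largest log2 fold change was -0.55 ± 0.26 (SE), in that comparison, with an adjusted p of 0.319, and -0.34 (0.529) without the 3 PIZ libraries that stood apart. The log2 fold change of -0.12 in the EZ at day 3 had 95% limits of -0.63 and 0.39, and its sign depended on the scaling, since it was 0.58 with size factors from the pan-neuronal list and 0.0040 with library size alone. The lowest values, 84.0 CPM in the EZ and 102 CPM in the PIZ, both came from kainate mouse 21 at day 7.

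Calb1 (ENSMUSG00000028222.3, chr4:15881155-15908085, plus strand) encodes calbindin, a cytosolic calcium buffer that is abundant in granule cells. It lay below saline in all 6 comparisons, with no overlap in 5. At day 3 the PIZ kainate libraries held 25.6, 27.9, 30.7 and 41.3 CPM, and the saline libraries held 130, 155, 179 and 186 CPM. The groups did not overlap, and the log2 fold change was -2.37 ± 0.35 with an adjusted p of 8.67e-06, which is 5.18-fold lower. The EZ kainate values of the same day were 32.7, 36.5, 44.7 and 93.3 CPM against 105, 120, 123 and 129 CPM in saline. These groups did not overlap either, with a log2 fold change of -1.20 ± 0.34 and an adjusted p of 0.00378. With size factors from the pan-neuronal list this EZ value was -0.49 (adjusted p of 0.117) and that of day 7 was -0.39 (0.206), so that neither was a DEG. The difference of the 2 effects, 1.17 ± 0.48 on the log2 scale with the smaller fall in the EZ, had an unadjusted p of 0.0189 and an adjusted p of 0.195, and was called by limma-voom alone of the 3 tools.

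At day 7 Calb1 in the EZ split by mouse, with 14.3 and 20.5 CPM in mice 21 and 35 and 86.8 and 113 CPM in mice 23 and 26, against 96.5 to 141 CPM in saline. The last 2 kainate values reached into the saline range or close to it, and the log2 fold change of -1.04 ± 0.34 had an adjusted p of 0.00873. Without the libraries of mice 21 and 35 (and 27 at day 14) it was -0.27 with an adjusted p of 0.432. In the PIZ at day 7 all kainate libraries (46.2 to 72.9 CPM) lay under all saline libraries (130 to 166 CPM), at -1.33 ± 0.34 with an adjusted p of 0.0366. At day 14 the EZ kainate range was 49.3 to 89 CPM against 138 to 155 CPM in saline, and the PIZ range was 57.8 to 72.7 CPM against 143 to 175 CPM. Neither pair of groups overlapped, but the edgeR adjusted p values of 0.0570 and 0.224 missed the threshold, with log2 fold changes of -1.07 ± 0.34 and -1.25 ± 0.34. Limma-voom called Calb1 lower in the EZ at day 14 (adjusted p of 0.00441) and in the PIZ at days 7 (2.5e-05) and 14 (5.38e-05). DESeq2 called it in the PIZ at day 7 (0.00885), but not at day 14 in the EZ (0.0324) or the PIZ (0.0786). With the compared groups alone it was called in the PIZ at days 7 (0.00382) and 14 (0.00222), but not in the EZ at day 14 (0.422). The PIZ effect shrank from day 3 to day 7 by 1.04 ± 0.48 on the log2 scale, with an unadjusted p of 0.0355 and an adjusted p of 0.433.

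Of 10 other calcium-binding genes listed, 6 were downregulated DEG in the EZ at day 3 and 7 at day 7. In those 2 comparisons 8.61% and 11.9% of all genes were called lower, and 9 and 11 of 16 pan-neuronal genes. In the other 4 comparisons 0 of the 10 were called. Calm3, among the most abundant of them, had a log2 fold change of -0.91 ± 0.17 in the EZ at day 3 (adjusted p of 3.20e-05). It was at -0.28 ± 0.17 in the PIZ, where the fall of Calb1 was largest (adjusted p of 0.227).

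Ahcyl2 (ENSMUSG00000029772.18, chr6:29768010-29912309, plus strand) is a relative of the IP3 receptor-binding protein IRBIT. Its saline level per kilobase had the smallest SD relative to its mean, and EZ and PIZ saline libraries together spanned 265 to 398 CPM. Kainate libraries held 154, 185, 203 and 241 CPM in the EZ and 147, 173, 189 and 221 CPM in the PIZ at day 3, all under the saline libraries of the same region and day (299 to 349 and 324 to 384 CPM). The log2 fold change was -0.96 ± 0.25 in the PIZ, a DEG with an adjusted p of 0.00400, and -0.76 ± 0.24 in the EZ, which narrowly missed the threshold with an adjusted p of 0.0103. The EZ value was called by DESeq2 (-0.77, adjusted p of 0.00505), but was -0.04 (0.853) with pan-neuronal size factors. The PIZ call was lost without any 1 of 6 of the 8 mice (kainate mice 30, 42 and 44, saline mice 29, 37 and 41), with adjusted p values of 0.0101 to 0.0229. At day 7 it was -0.73 ± 0.24 in the EZ (adjusted p of 0.0104, and -0.13 with 0.618 without the 3 EZ libraries that stood apart) and -0.74 ± 0.24 in the PIZ (0.119), and at day 14 it was -0.71 ± 0.24 (0.0880) and -0.55 ± 0.24 (0.768). Of its family and partners, Ahcyl1 (IRBIT itself) and the IP3 receptor Itpr1 were downregulated DEG at day 3 on both sides, with log2 fold changes of -0.74 ± 0.10 and -1.83 ± 0.29 in the EZ and -0.59 ± 0.10 and -1.26 ± 0.29 in the PIZ. Itpr2 was an upregulated DEG on both sides at day 3, at 0.68 ± 0.20 in the EZ and 0.74 ± 0.20 in the PIZ, and Itpr3 was called in the EZ, at 0.97 ± 0.22.

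Dsp (ENSMUSG00000054889.11, chr13:38335230-38382553, plus strand) encodes desmoplakin, which ties desmosomes to intermediate filaments. In the EZ at day 3 the kainate libraries held 28, 33.2, 35.5 and 69.9 CPM and the saline libraries 120, 140, 156 and 169 CPM, with no overlap. The log2 fold change of -1.81 ± 0.55 made it a DEG (adjusted p of 0.00693), 3.51-fold lower, but with pan-neuronal size factors it was -1.08 (adjusted p of 0.0541). PIZ kainate values of 23.3, 29.5, 35.7 and 43.0 CPM at day 3 lay under 64.4, 135, 136 and 161 CPM in saline, the lowest of which was the library of mouse 18. The log2 fold change was -1.92 ± 0.56 with an adjusted p of 0.0111, and -2.13 with an adjusted p of 0.00244 without the 3 PIZ libraries that stood apart.

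The later Dsp values were spread over a wide range. At day 7 the EZ kainate libraries held 14.9, 15.6, 83.5 and 145 CPM and overlapped with saline (114 to 156 CPM). In the PIZ they held 10.2, 40.8, 71.4 and 77.3 CPM, all under saline (142 to 152 CPM), with a log2 fold change of -1.56 ± 0.55 and an adjusted p of 0.156. At day 14 the ranges were 15.4 to 131 CPM in the EZ and 55.5 to 88.0 CPM in the PIZ, and saline mouse 39 had 24 CPM in its PIZ against 131 to 172 CPM in the other 3. Among the other desmosomal genes the directions were mixed. Pkp2 (plakophilin) was a downregulated DEG in the EZ at day 3, at -2.31 ± 0.36, while Jup (plakoglobin), Ppl (periplakin) and Dsc2 (desmocollin) were upregulated DEG at 0.70 ± 0.14, 1.61 ± 0.33 and 1.82 ± 0.45. Jup and Ppl were also upregulated DEG in the PIZ at day 3, at 1.14 ± 0.15 and 2.41 ± 0.34. Pkp4, the most abundant of the 7 tested, was not a DEG at day 3, with -0.48 ± 0.08 on the EZ side and -0.23 ± 0.08 on the PIZ side.

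C1ql2 (ENSMUSG00000036907.12, chr1:120268300-120270903, plus strand) encodes a secreted C1q-like protein that mossy fibres release and that binds neurexins and kainate receptors at their synapses. With all libraries no change in it was called by edgeR or DESeq2. The PIZ kainate libraries held 126, 137, 174 and 219 CPM at day 3, above every saline library (55.2, 74.2, 78.9 and 114 CPM), and 186, 194, 217 and 232 CPM at day 14, above 70.5, 116, 134 and 147 CPM. At day 7 they held 93.1, 171, 173 and 198 CPM against 90.3 to 148 CPM and overlapped. The log2 fold changes of 1.02 ± 0.59, 0.35 ± 0.58 and 0.83 ± 0.58 had adjusted p values of 0.208, 0.833 and 0.946, so none was a DEG. When only the PIZ groups of day 3 were fitted, so that the spread of the other groups was left out, the change at day 3 was 1.02 with an adjusted p of 0.00677.

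On the EZ side C1ql2 held 17.4, 32.7 and 32.9 CPM in 3 kainate mice and 169 CPM in mouse 44 at day 3, against 102 to 134 CPM in saline. That library was above every saline value, and the log2 fold change was -0.91 ± 0.59 (adjusted p of 0.201). Without mouse 44 it was -2.10 with an adjusted p of 0.00412, a DEG. With limma-voom it was -1.85 at day 3 (adjusted p of 4.4e-07) and -3.02 at day 7 (2.87e-06), both called. By edgeR the day 7 value was -0.91 ± 0.59 (adjusted p of 0.184), and -4.0e-05 without the 3 EZ libraries that stood apart. At day 7 C1ql2 held 8.71 and 10.2 CPM in mice 35 and 21 and 124 and 154 CPM in mice 26 and 23. At day 14 it held 27.8 CPM in mouse 27 and 149, 158 and 296 CPM in the other 3. Saline spanned 93.3 to 171 CPM and 127 to 222 CPM at those days, so that most libraries were either near or above saline or far below it. The EZ and PIZ effects at day 3 differed by -1.94 ± 0.83 on the log2 scale, with an unadjusted p of 0.0246 and an adjusted p of 0.214. Limma-voom with quality weights called this difference and the one at day 7, and edgeR and DESeq2 called neither.

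C1ql2 has relatives and partners at the synapse, and 3 of the 9 listed were called in the EZ at day 3 and 5 at day 7. Its relative C1ql1 was an upregulated DEG in the EZ at days 3 and 7 (1.23 ± 0.25 and 1.81 ± 0.25). The receptor Adgrb3 (BAI3) and the kainate receptor subunit Grik4 were downregulated DEG at both days, with -0.86 ± 0.19 and -1.09 ± 0.32 at day 3. Grik2 and Nrxn3 were downregulated DEG at day 7. C1ql3, made by granule cells together with C1ql2, was not a DEG on either side, with -0.49 ± 0.25 for both at day 3. Grik5, among the most abundant of the list, was at -0.34 ± 0.14 in the EZ at day 3, and none of the 9 was called in the PIZ.

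Tdo2 (ENSMUSG00000028011.17, chr3:81864248-81883509, minus strand) encodes tryptophan dioxygenase, which opens the kynurenine pathway of tryptophan breakdown. It had the deepest fall of the members at day 3. The EZ kainate libraries held 0.803, 0.995, 1.85 and 2.79 CPM against 8.53, 12.4, 13.9 and 15.4 CPM in saline, and the PIZ kainate libraries held 0.819, 1.25, 1.92 and 3.58 CPM against 11.7, 14.0, 15.2 and 15.6 CPM. The groups did not overlap on either side. The log2 fold changes were nearly equal, -2.96 ± 0.59 (adjusted p of 9.71e-05) and -2.91 ± 0.59 (adjusted p of 4.06e-04), or 7.76-fold and 7.53-fold lower, and differed by -0.04 ± 0.80. With an SE of that size the comparison would allow a difference of more than 1 log2 unit in either direction.

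At later days Tdo2 in the EZ differed more between kainate mice. The libraries held 0.509, 0.705, 5.15 and 6.82 CPM at day 7 (10.9 to 17.1 CPM in saline) and 0.680, 4.99, 7.59 and 13.5 CPM at day 14 (15.3 to 17.1 CPM). The kainate libraries stayed under the saline libraries at both days. Day 7 was a DEG at -2.18 ± 0.56 (adjusted p of 0.00112), and day 14 was not, at -1.25 ± 0.54 (adjusted p of 0.192). Without the 3 EZ libraries that stood apart the day 7 value was -1.31 with an adjusted p of 0.0249. In the PIZ the log2 fold change was -2.05 ± 0.55 at day 7, without overlap (adjusted p of 0.0480), and -1.25 ± 0.54 at day 14, with overlap (adjusted p of 0.766). Of 9 other kynurenine pathway genes 7 were tested. Ido2, which acts at the same step as Tdo2, was a downregulated DEG in the EZ at days 3 and 7, at -2.30 ± 0.41 and -1.87 ± 0.39. Kmo was an upregulated DEG there at both days, Haao and Afmid at day 7, and Haao in the PIZ at day 3 (3.08 ± 0.62). Kyat1 and Kyat3, the most abundant of the list, lay between -0.23 and 0.18 in the 6 comparisons.

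Plk5 (ENSMUSG00000035486.15, chr10:80191943-80201323, plus strand) is a member of the polo-like kinase family that is expressed in the brain. Its EZ kainate libraries at day 7 held 0.996, 1.18, 11.7 and 24.1 CPM, all under the saline libraries at 43.6, 55.8, 61.4 and 70.1 CPM. The log2 fold change of -2.60 ± 0.72 (adjusted p of 0.00234), 6.07-fold lower, made it a DEG. Without the 3 EZ libraries that stood apart it was -1.68 with an adjusted p of 0.0379. At day 3 the EZ values were 6.24, 12.9, 20.1 and 86.9 CPM, the highest again in mouse 44, against 47.1 to 53.4 CPM in saline, and without that mouse the log2 fold change was -1.956 with an adjusted p of 0.0204. Limma-voom called Plk5 at day 3, at -1.87 (adjusted p of 2.54e-05). At day 14 they were 1.81 CPM in mouse 27 and 49.2, 57.7 and 80.8 CPM in the other 3, against 55.2 to 82.7 CPM.

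In the PIZ Plk5 was at 22.5 to 86.5 CPM at day 3, 19.3 to 55.5 CPM at day 7 and 27 to 66.9 CPM at day 14, and each range overlapped with saline. The log2 fold changes there were 0.70 ± 0.67, -0.37 ± 0.67 and 0.14 ± 0.67. The EZ and PIZ effects at day 7 differed by -2.23 ± 0.97, with an unadjusted p of 0.0270 and an adjusted p of 0.0807, and the EZ effect differed between days 14 and 7 by 2.06 ± 0.97 (unadjusted p of 0.0398, adjusted p of 0.132). Limma-voom called both differences (adjusted p of 0.00178 and 0.00235), and edgeR and DESeq2 called neither. Without the 3 EZ libraries that stood apart the edgeR values were -1.30 (adjusted p of 0.309) and 1.54 (0.198). Of the 4 other polo-like kinases, which act in cell division and in stress responses, 3 were upregulated DEG in the EZ at days 3 and 7. They were Plk1 (2.64 ± 0.31 at day 3), Plk3 (1.6 ± 0.28) and Plk4 (1.71 ± 0.22), and Plk1 was also called in the PIZ at day 3, at 1.69 ± 0.32. Plk2, the most abundant, was at 0.50 ± 0.19 in the EZ at day 3 and was not a DEG.

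Lct (ENSMUSG00000026354.9, chr1:128212493-128256055, minus strand) encodes lactase, known from the intestinal brush border, and its transcript marks granule cells in the mouse brain. The EZ kainate libraries at day 3 held 7.46, 16.9, 51.1 and 52.2 CPM and the saline libraries 114, 130, 142 and 160 CPM, with no overlap. The log2 fold change of -2.10 ± 0.69 had an adjusted p of 0.0115 by edgeR and missed the threshold. It was called by DESeq2 (-2.11, adjusted p of 0.0049), by limma-voom (-1.76, 4.05e-04) and when the compared groups alone were fitted (-2.13, 0.00809). At day 7 the EZ held 7.76 and 11.1 CPM in mice 35 and 21 and 78.0 and 135 CPM in mice 26 and 23, against 113 to 154 CPM. In the PIZ, mouse 21 had 9.51 CPM at day 7 and the other 3 had 97.6 to 103 CPM, against 115 to 150 CPM in saline. The values of 9.51, 15.2 (saline) and 35.8 CPM (saline) in the 3 PIZ libraries that stood apart were each the lowest of their group, and the day 14 log2 fold change in the PIZ went from -0.16 to -0.52 without them.

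Kainate and saline libraries failed to overlap, with kainate lower, for 5 of 8 members in the EZ at day 3, where 18.5% of all genes did so. The counts were 2 of 8 at day 7 (20.1% of genes) and 2 of 8 at day 14 (3.42%). In the PIZ they were 4 of 8 at day 3 (13.6%), 6 of 8 at day 7 (5.26%) and 1 of 8 at day 14 (3.47%). With kainate higher, the counts in the PIZ were 1, 0 and 1 of 8, each time C1ql2, where 17.1%, 7.63% and 3.70% of all genes did so. An exact permutation test over 4 against 4 libraries cannot give a p under 0.0286, which each of these members reached, and after adjustment over the 48 tests that became 0.0624.

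By edgeR and DESeq2 no member was called in any comparison of the effects themselves. Between the EZ and the PIZ edgeR called 0 of 8 at days 3, 7 and 14, where 0.0655%, 9.89% and 0% of all genes were called. At an unadjusted p under 0.05 the members numbered 2 (Calb1 and C1ql2), 1 (Plk5) and 0, against 17.9%, 40.2% and 7.3% of all genes. DESeq2 called 0 members each time (0.507%, 16.1% and 0.00935% of all genes), and limma-voom called 3, 2 and 0 (8.78%, 24% and 0%). Between days 7 and 3 in the EZ 0 of 8 were called (0.145% of genes), and between days 14 and 7 also 0 of 8 (0.271%). The same comparisons in the PIZ gave 0 of 8 (0.0234%) and 0 of 8 (0%). Unadjusted p values under 0.05 were found for 0, 1, 1 and 0 members in these 4, against 12%, 33.1%, 10.6% and 3.08% of all genes. DESeq2 called 0 members in each (0.507%, 5.47%, 0.167% and 0.00468% of all genes), and limma-voom called 1, 2, 0 and 0 (5.73%, 29.5%, 0.659% and 0.014%).

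Because no change in Prox1 passed the test, the other 7 members were also read relative to it within each library, as the difference in log2 CPM. Prox1 is not thereby shown to be constant. In the PIZ at day 7 it lay below all saline libraries, with an unadjusted edgeR p of 0.0415. The ratio to Prox1 was chosen after the data were seen, and 42 exact two-sided permutation tests were run, in which the smallest possible p of 0.0286 became 0.05 after adjustment. The share of all genes whose ratio to Prox1 separates the groups was not counted, so none is given beside the members. Relative to Prox1, Tdo2 was lower in kainate mice by 2.90, 2.42 and 1.66 log2 units in the EZ and by 3.00, 1.52 and 1.33 in the PIZ at days 3, 7 and 14. The groups did not overlap in any of the 6, each with that smallest p. Relative Calb1 was at -2.38 ± 0.648 in kainate and -1.17 ± 0.0757 in saline in the EZ at day 3, and at -2.91 ± 0.410 and -0.553 ± 0.233 in the PIZ (SD, n = 4). These groups also did not overlap, as at the later days except in the PIZ at day 7, where mouse 21, low in Prox1 (102 CPM) but the highest of its group in Calb1 (72.9 CPM), was at -0.478.

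On this scale C1ql2 was higher in kainate than in saline libraries of the PIZ. Relative to Prox1 it was at -0.537 ± 0.343 in kainate and -1.6 ± 0.152 in saline at day 3, at -0.269 ± 0.143 and -1.20 ± 0.293 at day 7, and at -0.206 ± 0.163 and -1.04 ± 0.188 at day 14. The kainate libraries lay above all saline libraries at each day, by 1.06, 0.929 and 0.838 log2 units, with an exact permutation p of 0.0286 each time. C1ql2 itself overlapped with saline at day 7 (a log2 fold change of 0.35) and Prox1 was at -0.55 there, so that both enter the difference of 0.929. In the EZ the same differences were -1.36, -1.47 and -0.318 and the groups overlapped. Plk5, which moved with C1ql2 across libraries, showed differences of 0.657, 0.128 and 0.219 in the PIZ, where its groups overlapped at each day.

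**Figure D4:**
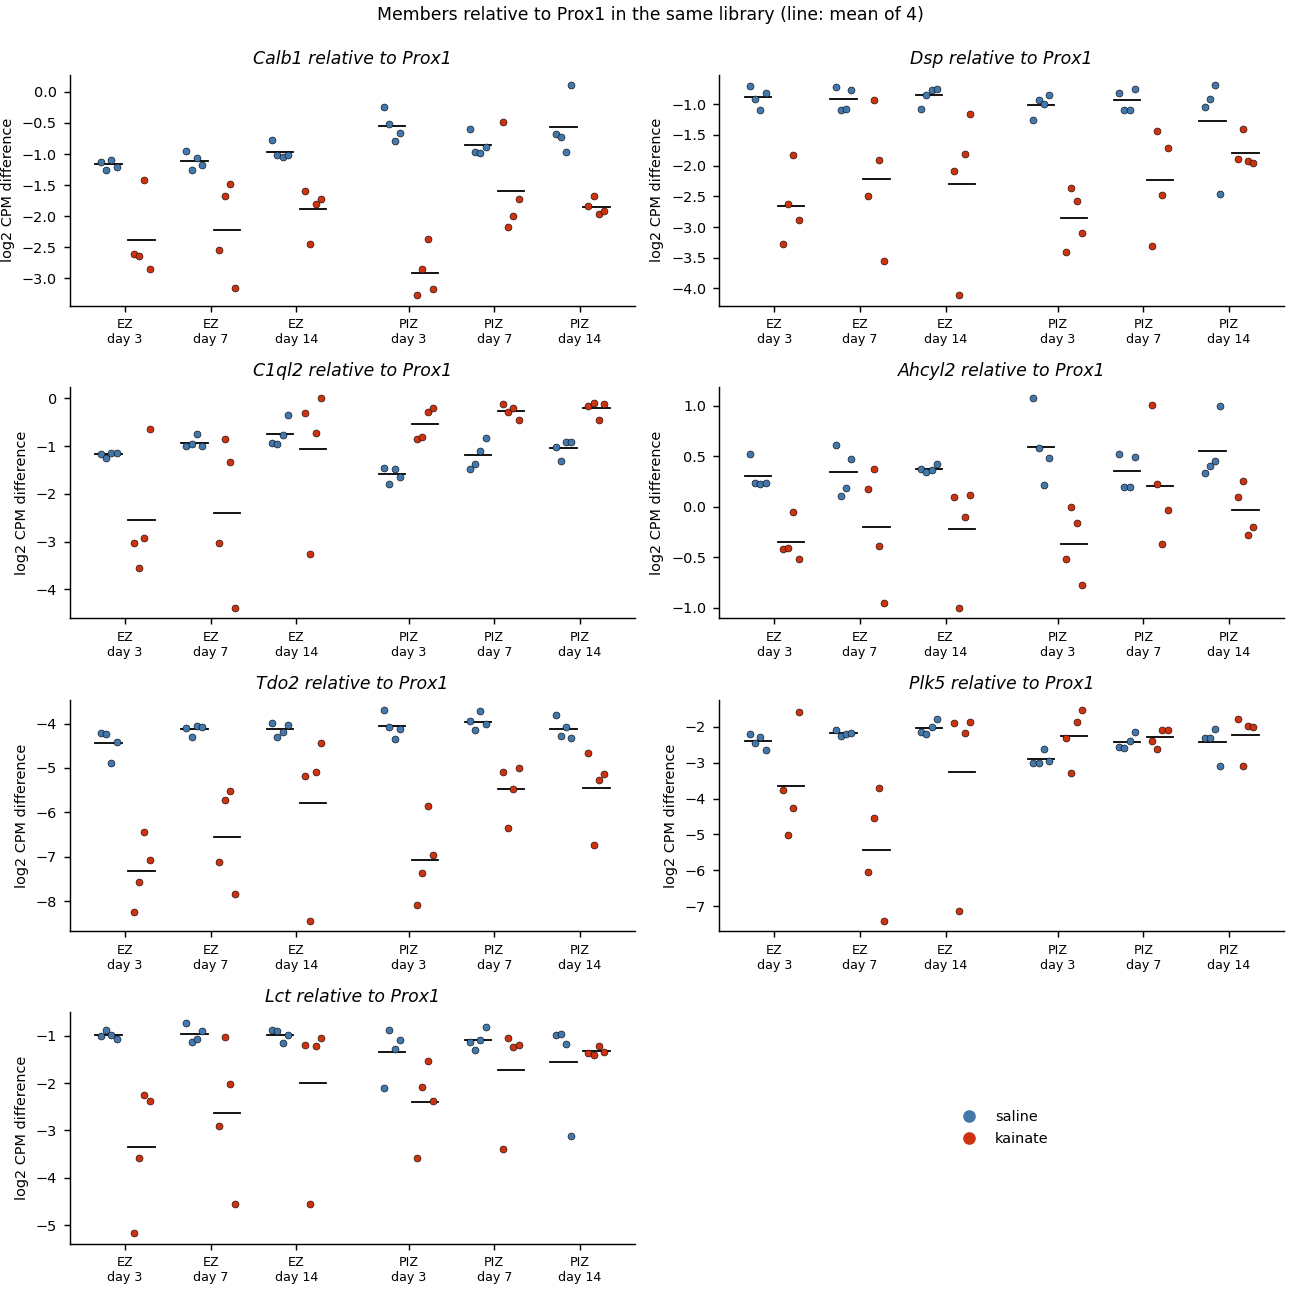
Difference in log2 CPM between each of 7 members and Prox1 in the same library (y axis), by region and day, with saline in blue, kainate in red and a line at the mean of 4 libraries. Tdo2 lies below saline in all 6 pairs of groups, and C1ql2 lies above saline in the PIZ at each day.

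Across the 48 libraries some pairs of members varied together after the group means were taken out. Within groups, Pearson's r between log2 CPM values was 0.927 for Dsp and Lct, 0.921 for C1ql2 and Plk5, 0.834 for Tdo2 and Plk5, 0.828 for Dsp and Ahcyl2 and 0.812 for Calb1 and Ahcyl2. The lowest of the 28 pairs was Prox1 and Tdo2 at 0.509. Without removing group means, Calb1 and Ahcyl2 were at 0.919, Calb1 and Tdo2 at 0.907 and Calb1 and C1ql2 at 0.382. The points share mice, since each gave both an EZ and a PIZ library, and share the tissue makeup of a library. By the same measure the genes most like the mean of the members over the 48 libraries were Dgkh (0.981), Jph1 (0.974), Mrtfb (0.960), Ablim3 (0.960) and Gpr61 (0.952). Within groups they were Dgkh (0.973), Jph1 (0.962), Mrtfb (0.962), Pitpnm2 (0.961) and Kbtbd11 (0.953).

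Other genes of granule cells gave a smaller median change than the members, and both lists were chosen with earlier results of these data known. Of 18 such genes, 2 were downregulated DEG in the EZ at day 3, the kinase Dgkh (-1.67 ± 0.43) and the synaptic vesicle protein Synpr (-1.06 ± 0.32), and 5 at day 7 (Bcl11b, Dgkh, Npy1r, Rfx3 and Stxbp6). None was called in the other 4 comparisons, and none was called higher. Their median log2 fold changes were -0.49, -0.55 and -0.42 in the EZ and -0.14, -0.49 and -0.13 in the PIZ. The most abundant of the list, Zbtb20 and Fam163b, were at -0.19 ± 0.18 and -0.43 ± 0.41 in the EZ at day 3 and were not DEG. Of 10 genes of immature granule cells, Dpysl3 was called higher in the EZ at days 3 and 7, Eomes lower there at day 3, and Igfbpl1 higher in the PIZ at day 14 (1.88 ± 0.33, adjusted p of 0.00764). Tubb3 and Stmn1, the most abundant, were at -0.41 ± 0.14 and 0.07 ± 0.14 in the EZ at day 3 and were not DEG. That list's mean lay between 4.71 and 5.19 log2 CPM in PIZ kainate libraries at day 7, against 3.86 to 4.31 in saline, and between 4.68 and 5.04 at day 14, against 4.03 to 4.17.

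Markers of other cells moved in the same comparisons. In the EZ 7 of 8 microglia genes were upregulated DEG at day 3, 8 at day 7 and 6 at day 14, and in the PIZ 8 of 8 at day 3 and 0 at days 7 and 14. The microglia gene Csf1r was at 2.66 ± 0.31 in the EZ at day 7 and 1.71 ± 0.30 in the PIZ at day 3, and Cx3cr1 was at 1.06 ± 0.32 in the EZ at day 3. Astrocyte genes were called higher in 4, 6 and 3 of 8 in the EZ and in 4, 0 and 0 in the PIZ, with Gfap at 3.65 ± 0.44 in the PIZ at day 3. Aldh1l1, Aqp4, Gfap and Vim were the 4 on both sides at day 3, and Aqp4, Gfap and Vim the 3 in the EZ at day 14. The glutamate transporter Slc1a2 was a downregulated DEG in the EZ at day 3 (-0.95 ± 0.14). Of 16 pan-neuronal genes 9 were downregulated in the EZ at day 3 and 11 at day 7, with Snap25 at -1.28 ± 0.21 and -1.53 ± 0.21, and 0 in the PIZ at day 3. The neurofilament gene Nefm was an upregulated DEG at day 3, at 1.01 ± 0.22 in the EZ and 0.81 ± 0.22 in the PIZ, and Map2 was at -0.38 ± 0.18 in the EZ and was not a DEG. Interneuron genes fell in the EZ in 6 of 8 at day 3 and 5 of 8 at day 7, and CA3 and CA2 pyramidal genes in 5 and 6 of 9. The 5 interneuron genes of day 7 were Cck, Lhx6, Pvalb, Slc32a1 and Sst, and Cck was also called lower in the PIZ at day 3 (-0.78 ± 0.19). Gad1 and Gad2, which make GABA, were at -0.43 ± 0.18 and -0.24 ± 0.24 in the EZ at day 3 and were not DEG. The 5 CA3 and CA2 genes of day 3 were Amigo2, Cpne4, Grik4, Iyd and Rgs14, with Rgs14 at -1.50 ± 0.47, while Pcp4 was at -0.68 ± 0.26 and was not a DEG. With size factors from the pan-neuronal list, which read the members against general neuronal RNA, Tdo2 was the 1 member still called in the EZ at day 3. Tdo2 and Plk5 were called with them in the EZ at day 7, and Calb1, Ahcyl2 and Tdo2 in the PIZ at day 3. The part of these cells in the members' changes was not tested.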

How the data were processed

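RNA was sequenced from the dorsal DG of both sides of 24 mice. The authors trimmed reads with fastp 0.20.1, aligned them with HISAT2 2.2.1 and counted them per gene with featureCounts of Subread 1.6.4, and deposited 1 table of raw counts for 48 libraries, whose values are whole numbers with no normalization. The submitters' processing notes also name DESeq2 1.32.0 and R 4.1.1. Coordinates are from the GENCODE M39 annotation of GRCm39, to which 98.9% of the 55357 gene identifiers were matched, and promoters are from RefSeq on GRCm38.p6. Exon lengths for levels per kilobase came from the same GENCODE annotation.

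Genes with low counts were removed with filterByExpr of edgeR 4.0.16, leaving 21390. Counts were scaled by TMM, and 1 quasi-likelihood model with 12 group means was fitted in R 4.3.3 over all libraries. P-values were adjusted by the Benjamini-Hochberg method over all genes tested, and a DEG had an adjusted p under 0.01 and a fold over 1.5. Log2 CPM used a prior count of 2. The 8 members are all named, and of each of the 18 other lists the 2 most abundant genes are named, with any gene where a count is 5 or fewer, except for some list genes that are not reported here. Other list genes were named after their values were seen. Likeness was measured against the mean of the members' standardised log2 CPM, and the 5 highest genes are given. The members and the lists were chosen with earlier results of these data known. The steps were tested on simulated data. Alternatives were DESeq2 1.42.0, voom in limma 3.58.1 with quality weights, other size factors, other filters and thresholds, fits to the compared groups alone, a replicate block by mouse, and each mouse or the libraries that stood apart left out. EZ and PIZ libraries of a mouse are paired by animal. The correlation of their deviations from group means lay between -0.0536 and 0.376 and exceeded 0.1 in 20 of 24 mice. Kainate and saline mice are different animals and are not paired. The library kit keeps strand, and per the study's methods reads were counted on the reverse strand setting, with the GENCODE M28 annotation. The labels used here give no sequencing batch, so none was fitted.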

Additional observations from a re-analysis of the deposited data

Results flagged for a closer look

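In 13 of the 96 groups of 4 libraries (8 members in 12 groups), 1 library lay further from the other 3 than Dixon's 95% critical value allows. Chance alone marks about 1 in 20 groups. Saline mouse 39 accounted for 4 of them in the PIZ at day 14, with 132.7 CPM for Prox1, 23.99 for Dsp, 15.57 for Plk5 and 15.23 for Lct, each below the other 3 mice. Saline mouse 18 was low for Lct in the PIZ at day 3 (35.79 CPM), and kainate mouse 21 was low in the PIZ at day 7 for Prox1 (101.5 CPM) and Lct (9.506 CPM). These are the 3 PIZ libraries that were low in other granule cell genes and high in mossy cell genes, and the part of those cells in their values was not tested. Kainate mouse 27 at day 14 differed from the other 3 in the PIZ for Ahcyl2 (277.8 CPM, above them), Tdo2 (2.102 CPM, below) and Plk5 (26.99 CPM, below), and in the EZ for Plk5 (1.813 CPM, below). The remaining 2 were low saline libraries, Calb1 in the PIZ of mouse 89 at day 7 (129.5 CPM) and Dsp in the EZ of mouse 24 at day 14 (115.1 CPM).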

How the results depend on the processing

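Over the 6 kainate effects, 805 member values kept direction and side of the threshold under an alternative, 45 passed it only there, 35 no longer passed and 19 changed sign. In the EZ at day 3 the 3 calls became 5 at an adjusted p under 0.05, 5 with DESeq2, 6 with limma-voom, 5 when fitted to the compared groups alone, and 1 with pan-neuronal size factors, and lay between 1 and 4 when each mouse was left out. They fell to 1, Tdo2, without kainate mouse 38, kainate mouse 30 or saline mouse 41. In the EZ at day 7 the 3 calls became 7 with limma-voom, 0 in the compared groups alone and 0 without the 3 EZ libraries that stood apart, and lay between 1 and 5 with a mouse left out, with 5 without kainate mouse 23 and 1 without kainate mouse 21 or 35. The 0 calls of the EZ at day 14 became 2 with limma-voom. The 3 calls of the PIZ at day 3 became 5 in the compared groups alone, and were 2 to 3 with a mouse left out, Ahcyl2 being the call that was lost. In the PIZ at day 7 the 0 calls became 2 at an adjusted p under 0.05, 1 with DESeq2, 4 with limma-voom and 3 in the compared groups alone, and at day 14 they became 3 with limma-voom and 1 in the compared groups alone. For differences between effects, limma-voom called 3 (EZ against PIZ at day 3), 2 (day 7), 1 (EZ day 7 against day 3) and 2 (EZ day 14 against day 7), where edgeR called 0. The causes of these differences were not tested.

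With mouse as a replicate block, 0 members were called in the EZ against PIZ differences at any day or in saline. The value was 1.054 for Calb1 (adjusted p of 0.217) and -2.533 for C1ql2 (0.0713) at day 3, and -2.837 for Plk5 (0.0160) at day 7.

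The log2 fold changes that changed sign were not DEG. Prox1 became 0.004013 with library size alone and 0.5825 with pan-neuronal size factors in the EZ at day 3, 0.5752 with pan-neuronal factors and 0.1673 without the 3 EZ libraries at day 7, and 0.0004077 with pan-neuronal factors at day 14. For the PIZ at day 3 it became 0.02858 with library size alone, 0.1419 with pan-neuronal factors and 0.08941 without saline mouse 37, and at day 14 it became 0.03266, 0.06962, 0.04442 and 0.0358 without mice 24, 28, 31 and 14. Ahcyl2 in the EZ at day 7 became 0.04541 with pan-neuronal factors. C1ql2 in the EZ at day 14 became 0.2543 without the 3 EZ libraries, 0.2459 without mouse 27 and 0.05279 without saline mouse 39. In the PIZ at day 14 Plk5 became -0.1516 without the 3 PIZ libraries or without mouse 39, and Lct became 0.04909 without mouse 28. Pan-neuronal factors moved the median of all genes by 0.740 and 1.09 in the EZ at days 3 and 7, 0.144 at day 14 and 0.234 in the PIZ at day 3. They turned 3439 higher and 1841 lower calls into 11188 and 417 in the EZ at day 3, and 4413 and 2547 into 14728 and 301 at day 7. With library size alone the EZ day 3 median moved by 0.127, and the calls were 4233 higher and 1313 lower.

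With each mouse left out in turn, the extremes on the other side of 0 were -0.6075 for C1ql2 in the EZ at day 14 (mouse 40), -0.2361 for Prox1 in the PIZ at day 3 (mouse 18), and in the PIZ at day 14 -0.2294 for Prox1 (mouse 39), 0.3669 for Plk5 (mouse 27) and -0.5227 for Lct (mouse 39).

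With 4 mice a group an exact permutation test cannot go below 0.0286. Among the members Tdo2 had the lowest counts, with as few as 13 in a library.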

Other observations

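Lists of other hippocampal cells, not described above, moved mostly in the EZ. Of 6 CA1 pyramidal genes, 2 were downregulated DEG in the EZ at day 3 (Fibcd1 and Mpped1), and Dcn was called higher there at days 3 and 7. Mpped1 was at -2.63 ± 0.68 and Wfs1 at -1.24 ± 0.43 at day 3 on the log2 scale. In the PIZ at day 3 the single CA1 call was Fibcd1, lower. Of 5 mossy cell genes, Ajap1 and Drd2 were downregulated in the EZ at days 3 and 7, while Csf2rb2 was called higher at both days and Cntn6 at day 7. Ajap1 was at -1.18 ± 0.14 on both days, and Calb2, which interneurons also express, was at 0.26 ± 0.68 and 0.60 ± 0.69.

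Oligodendrocyte genes were called higher in the EZ in 2 of 8 at day 3 (Olig1 and Olig2) and in 4 of 8 at day 7 (with Cnp and Mag), and Olig1 in the PIZ at day 3. The myelin gene Mbp was at 0.67 ± 0.28 in the EZ at day 7 and was not a DEG. Of 6 endothelial genes, Cdh5, Cldn5 and Pecam1 were called higher in the EZ at days 3 and 7, and Flt1 and Slco1a4, the most abundant, were not. Of 3 choroid plexus genes tested, Kl was lower in the EZ at days 3 and 7 (-1.50 ± 0.38 and -1.91 ± 0.39), and Ttr was at -0.21 ± 0.82 and -0.09 ± 0.83. None of these 5 lists held a DEG in the EZ at day 14 or in the PIZ at days 7 and 14.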
